A study of Mus musculus with 8 samples.

Results

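The genes described here are the RNA genes of the mouse that RefSeq lists with a non-coding accession and that were measurable on every array of a study of BMEL cells, a mouse embryonic liver line of liver progenitor cells that can give hepatocytes and bile duct cells. A gene was taken when a probe of the array was annotated to a RefSeq accession with the prefix for non-coding RNA, when that probe was well above background by the scanner software's flag on all 8 arrays, and when the accession could be matched to a gene symbol. The brightest such probe stood for the gene. The known imprinted RNAs H19, Meg3, Rian, Mirg, Kcnq1ot1, Airn and Peg13 were left out, of which 3 (Airn, Kcnq1ot1 and Peg13) had passed the other criteria. This left 287 genes of 20660 genes named on the array, chosen by their signal on all arrays and not by any difference between media.

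The study hybridised Cy3-labelled RNA of BMEL cells to 8 one-colour Agilent mouse arrays, 2 from cells in the medium labelled DIFF, 3 from cells in the medium labelled CM and 3 from cells in the medium labelled NoRX. The title of the series names medium conditioned by human amniotic epithelial cells, but the labels spell out none of the 3 abbreviations and give neither the composition of a medium nor a time in culture. All arrays come from 1 cell line, and the labels name no genotype, allele or treatment beyond the medium. Nothing says that the arrays of a group were separate cultures, so the p-values below measure the spread between these arrays, which may be technical. The sample titles number the DIFF arrays 1 and 2, but a second label of each calls it replicate 1, so whether they are 2 separate samples is uncertain. Values are log2 signal relative to the 75th percentile of the array, called the log2 level, and a difference between media is a difference of mean log2 levels. Differences were tested with limma in 1 model over all 8 arrays and 14033 genes, and a gene counted as past the test at a Benjamini-Hochberg adjusted p under 0.05.

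A non-coding accession does not make a gene non-coding. By the RefSeq gene table, 191 of the 287 genes were of the class long non-coding RNA (lncRNA) and 78 were transcribed pseudogenes. Another 10 were protein-coding genes of which the probe matched a non-coding transcript. The other 8, called structural RNAs here, were 4 small nuclear, 2 ribosomal, 1 small nucleolar and 1 RNase MRP RNA. Of the 287, 200 carried only a clone or predicted name and no symbol that tells a function. Long non-coding RNAs are transcribed and often spliced like messenger RNAs but are not translated into a known protein. Some act in the nucleus as scaffolds, some carry small RNAs in their introns or exons that are cut out during processing, and many lie beside a protein-coding gene whose transcription they can influence. The labelling kit primes from the poly(A) tail, so RNAs that lack a tail, among them most small structural RNAs, are measured less directly than tailed ones.

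The share of spots well above background was 46.4% on DIFF replicate 2 and 50.8% to 53.5% on the other 7 arrays. DIFF replicate 2 also had 1159 spots with uneven local background where the other arrays had 3 to 90. Over the 287 genes, the CM arrays correlated with each other at 0.997 to 0.998 and the NoRX arrays at 0.996, whereas the DIFF pair correlated at 0.950. The level was lower on DIFF replicate 2 than on DIFF replicate 1 for 265 of the 287 genes, with a median difference of -0.26 on the log2 scale, so each DIFF mean lies between 2 arrays that differ by about that much. Of the 17 liver progenitor markers on the array, 14 were well above background on all 8 arrays, among them Krt19, Epcam, Sox9 and Afp. Of the 16 of them tested, 4 were higher and 10 lower in DIFF than in NoRX: Alb, the albumin gene of hepatocytes, was 8.87 higher on the log2 scale, while Epcam and Sox9 fell by 1.84 and 1.64. Afp and Krt7 of the same list also lay higher in DIFF. Afp had log2 levels of 3.61 and 3.29 in DIFF and 1.21, 1.37 and 1.21 in NoRX. Krt7 had 4.92 and 4.53 in DIFF and 3.03, 3.10 and 3.04 in NoRX. Of 28 markers of 4 other cell types on the array, 8 were above background on no array, 12 on 1 to 7 and 8 on all 8. On no array were Lrat, Pdgfrb and Reln (stellate cells), Adgre1 and Lyz2 (macrophages), Tek and Emcn (endothelium) and Alas2 (erythroid cells). On all 8 were Des (stellate cells), Csf1r, Cd14 and Itgam (macrophages), Pecam1 and Kdr (endothelium) and Hba-a1 and Epor (erythroid cells), with Kdr at mean levels of 3.08 in DIFF, 3.39 in CM and 3.41 in NoRX. The summed linear signal of the macrophage list, relative to the 75th percentile, was 10.8 to 13.1 on the DIFF arrays, 21.5 to 22.5 on the CM arrays and 17.1 to 18.6 on the NoRX arrays, and that of the stellate list was 0.258 to 0.387, 1.59 to 1.89 and 0.725 to 0.759 in the same media. The endothelial list summed to 8.29 to 9.76, 10.5 to 11.4 and 10.1 to 12.2, and the erythroid list to 0.797 to 0.896, 0.425 to 0.482 and 0.597 to 0.812. Their part in the results below was not tested, and fewer cells of a kind and less RNA per cell cannot be told apart on these arrays.

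The non-coding genes changed with the media about as often as other genes did. Between CM and NoRX, 62 of the 287 were higher and 88 lower in CM, together 52.3%, against 52.2% of all genes tested. Between DIFF and NoRX, 41 were higher and 78 lower in DIFF, together 41.5% against 42.1% of all genes. Between DIFF and CM, 85 were higher and 87 lower in DIFF, together 59.9% against 59.1%. By direction, 26.9% of all genes were higher and 25.3% lower in CM than in NoRX, 14% higher and 28.1% lower in DIFF than in NoRX, and 23.6% higher and 35.5% lower in DIFF than in CM. The arrays of the 2 media did not overlap for 187 of the 287 genes between CM and NoRX, for 162 between DIFF and NoRX and for 195 between DIFF and CM, which is 65.2%, 56.4% and 67.9%, against 71%, 57.2% and 68.5% of all genes. Neither the share called nor the median difference (-0.04, -0.07 and -0.04, against 0.01, -0.10 and -0.11 over all genes) set the non-coding genes apart. Since every member was well above background on all 8 arrays, the shares over all genes detected that way are the closer background. They were 55.1%, 43.9% and 61.4% called, with 27.9% higher and 27.2% lower in CM than in NoRX, 14.4% and 29.5% in DIFF than in NoRX, and 24.9% and 36.5% in DIFF than in CM. Their arrays did not overlap in 75.1%, 57.9% and 69.9%.

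The balance of higher and lower calls in the DIFF comparisons depended on the scaling and on which DIFF array was kept. With arrays centred on their median instead of their 75th percentile, the median difference over all genes was 0.05 between DIFF and NoRX and 0.06 between DIFF and CM, where it had been -0.10 and -0.11. In that scaling 57 genes were higher and 43 lower in DIFF than in NoRX, and 96 higher and 53 lower in DIFF than in CM. Without DIFF replicate 2 the counts against NoRX were 73 higher and 57 lower, and without DIFF replicate 1 they were 32 and 122. The fit also takes 1 spread per gene for all media, although the median SD over the 287 genes was 0.190 in DIFF, 0.082 in CM and 0.091 in NoRX. On data simulated with the spread of each medium, it called unchanged genes many times more often in both comparisons with DIFF than between CM and NoRX, so a call against DIFF is less firm at the same adjusted p. With arrays weighted by their fit, 17 were higher and 30 lower in DIFF than in NoRX, and 50 higher and 47 lower in DIFF than in CM. Slide position is a further limit, since row 1 held CM replicate 1 with all 3 NoRX arrays, and row 2 the DIFF arrays with CM replicates 2 and 3. With the row as a block, 44 and 57 genes were higher and lower in CM than in NoRX, and 25 and 31 in DIFF than in NoRX. Within row 1 the CM comparison gave 62 and 87, and within row 2 DIFF against CM gave 66 and 59. No row holds both DIFF and NoRX arrays.

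Changes of at least 2-fold were fewer: 10 genes were that much higher and 20 lower in CM than in NoRX, 9 higher and 20 lower in DIFF than in NoRX, and 33 higher and 30 lower in DIFF than in CM. These are 10.5%, 10.1% and 22.0% of the 287, against 11.4%, 12.5% and 20.2% of all genes tested and 8.34%, 9.57% and 16.5% of those detected on all arrays. Read over the 3 media, 38 genes were lower in CM than in both NoRX and DIFF with no difference called between DIFF and NoRX, and 25 were higher in CM than in both in the same way. These are 13.2% and 8.71% of the 287, against 10.05% and 10.95% of all genes tested. Another 24 were lower in DIFF than in both CM and NoRX, which did not differ past the test from each other, and 15 were higher in DIFF than in both (8.36% and 5.23%, against 8.69% and 4.75%). A further 18 were higher in CM and lower in DIFF than in NoRX, with DIFF below CM, and 15 were the reverse (6.27% and 5.23%, against 9.04% and 3.69%). For 74 genes, 25.8% against 26.5%, no comparison passed. The 2 comparisons with NoRX share the same 3 NoRX arrays, and the values are therefore set side by side only.

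**Figure D1:**
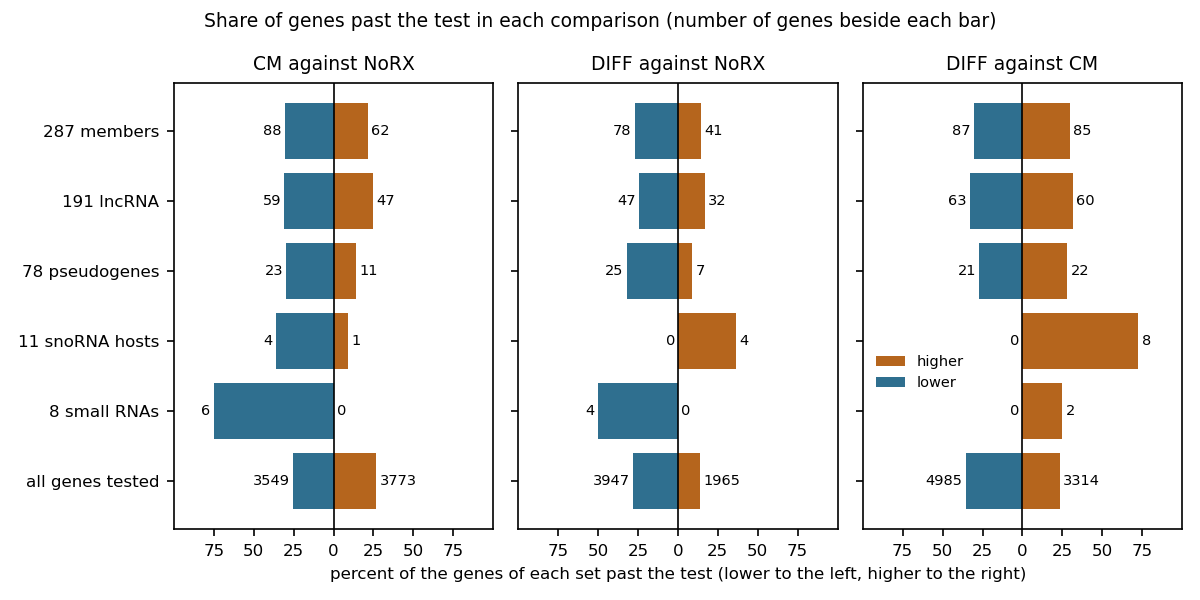
Percent of genes past the test (x axis; lower to the left, higher to the right, with the number of genes beside each bar) in the 3 comparisons, for all 287 genes, for 4 classes or lists within them and for all 14033 genes tested. The bars of the 287 genes are close in total length to those of all genes. The 11 snoRNA hosts have 8 higher and 0 lower in DIFF against CM. The 8 structural RNAs, labelled small RNAs, have 6 lower and 0 higher in CM against NoRX.

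Hosts of small nucleolar RNAs formed one group within these genes. Small nucleolar RNAs (snoRNAs) guide chemical modification of ribosomal RNA, and in mammals most are cut from the introns of host transcripts. Several hosts encode no protein, and their spliced exons are known as targets of nonsense-mediated decay, so that the measured exons report transcription of the host together with the rate of that decay. Of 12 listed non-coding hosts on the array 11 were measured on every array, and only Snhg18 fell short. In CM 4 of the 11 were lower than in NoRX and 1 was higher, in DIFF 4 were higher than in NoRX and 0 lower, and in DIFF 8 were higher than in CM and 0 lower. In total 45.5%, 36.4% and 72.7% of the 11 passed, against 52.2%, 42.1% and 59.1% of all genes. The medians of the 11 differences were -0.13, 0.30 and 0.53.

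The 4 hosts that fell in CM were Snhg17, Snhg12, Snhg1 and 1110038B12Rik, and each had 3 CM values below all 3 of its NoRX values. Snhg1, known as the host of the U22 snoRNA, had log2 levels of 2.43 and 2.19 on the DIFF arrays, 1.08, 1.11 and 0.98 on the CM arrays and 1.83, 1.70 and 1.84 on the NoRX arrays. The 3 media did not overlap, with DIFF highest and CM lowest. The difference between CM and NoRX was -0.73 (SE 0.08, adjusted p = 2.64e-05), that between DIFF and NoRX 0.52 (adjusted p = 0.000888) and that between DIFF and CM 1.25 (adjusted p = 5.16e-07), a 2.38-fold difference. Snhg17 had 0.12 and -0.16 in DIFF, -0.94, -1.10 and -1.17 in CM and -0.03, -0.07 and -0.06 in NoRX. Only CM stood apart, at 2.03-fold below NoRX (adjusted p = 7.54e-06), while DIFF enclosed the NoRX values.

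Snhg12, which carries 3 H/ACA snoRNAs and 1 C/D snoRNA in its span, had 3.93 and 3.69 in DIFF, 2.86, 2.89 and 2.78 in CM and 3.64, 3.55 and 3.61 in NoRX. Its CM values lay 1.69-fold below NoRX (adjusted p = 1.16e-05), and the DIFF values lay slightly above NoRX without passing (difference 0.21, adjusted p = 0.0736). 1110038B12Rik, which holds Snord52, had 5.44 and 5.23 in DIFF, 4.62, 4.65 and 4.62 in CM and 5.31, 5.29 and 5.34 in NoRX. Again CM was the low medium, 1.61-fold below NoRX (adjusted p = 1.15e-05). These 4 calls in CM held under all 23 alternatives tried.

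The other hosts did not share that fall. Snhg5 was the host that rose in CM, at -1.19 and -1.13 in DIFF, -1.40, -1.29 and -1.56 in CM and -1.73, -1.99 and -1.88 in NoRX. Both media lay above every NoRX array, by 0.71 in DIFF (adjusted p = 0.000912) and 0.45 in CM (adjusted p = 0.00598). With the slide row as a block the difference in CM was 0.47 (adjusted p = 0.0588), not past the test, and with array weights that in DIFF was 0.72 (adjusted p = 0.111). Snhg3 had 4.22 and 3.97 in DIFF, 3.57, 3.60 and 3.52 in CM and 3.75, 3.65 and 3.68 in NoRX, and CM lay just below NoRX. Snhg16 had 3.29 and 3.14 in DIFF, 2.96, 2.92 and 2.77 in CM and 2.79, 2.71 and 2.77 in NoRX. In both hosts DIFF was above CM and NoRX, by 0.40 and 0.46 over NoRX (adjusted p = 0.00307 and 0.00108), while CM and NoRX did not differ past the test. The call of Snhg3 against NoRX was lost with the slide row as a block (adjusted p = 0.108) and under normexp background correction (0.0712). The call of Snhg16 against NoRX was lost with array weights (adjusted p = 0.0549), that against CM with array weights, under normexp and within row 2, and a second, dimmer probe of Snhg16 did not pass against NoRX (0.37, adjusted p = 0.0866). Snhg6, with 5.09 and 4.95 in DIFF, 5.13, 5.05 and 4.98 in CM and 5.18, 5.18 and 5.07 in NoRX, overlapped in all 3 comparisons.

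The CM arrays of Snhg10 were far apart. It had 0.23 and 0.33 in DIFF, 0.17, -0.52 and -0.53 in CM and -0.14, -0.14 and -0.18 in NoRX, so that CM replicate 1, the one CM array in row 1 of the slide, lay above NoRX and the other 2 CM arrays below. The pooled difference between CM and NoRX was -0.14 (adjusted p = 0.496), and within row 1 it was 0.32 (adjusted p = 0.011). Its excess in DIFF over CM, 0.57, was lost without CM replicate 2, CM replicate 3 or DIFF replicate 2. It was also lost with array weights and with the DIFF arrays averaged. Snhg7 rose in DIFF over CM by 0.36 (adjusted p = 0.0226). That call was lost without CM replicate 3, without DIFF replicate 1, within row 2, with array weights and under normexp background correction. 2410006H16Rik passed in no comparison.

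**Figure D2:**
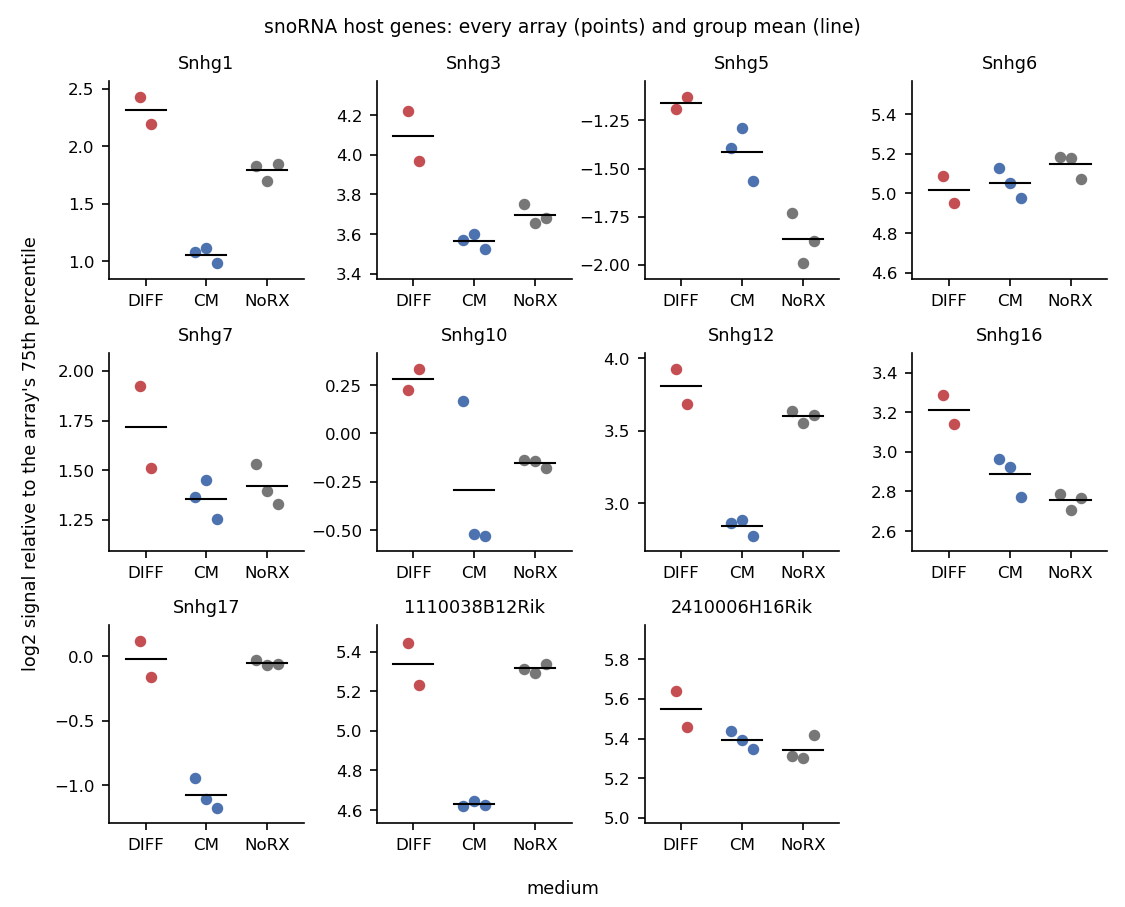
Log2 level relative to the 75th percentile of the array (y axis, own scale in each panel) of the 11 snoRNA hosts on every array (points) with group means (lines), for DIFF (2 arrays), CM (3) and NoRX (3). Snhg1, Snhg12, Snhg17 and 1110038B12Rik have all CM points below all NoRX points, and the Snhg10 panel shows CM replicate 1 at 0.17 apart from the other CM arrays.

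Promoters of these hosts are printed to set the 4 that fell in CM beside 2 that did not. The windows run from 250 bases before to 50 bases after the start that RefSeq annotates in GRCm38.p6, on the strand of the gene. Capitals mark the letters TATAAA on either strand, and any unbroken run of at least 8 pyrimidines (C or T) that reaches within 5 bases of the annotated start, where the messages of ribosomal proteins and many snoRNA hosts are known to begin with a pyrimidine tract.
Snhg1 chr19:8723237-8723536 (+): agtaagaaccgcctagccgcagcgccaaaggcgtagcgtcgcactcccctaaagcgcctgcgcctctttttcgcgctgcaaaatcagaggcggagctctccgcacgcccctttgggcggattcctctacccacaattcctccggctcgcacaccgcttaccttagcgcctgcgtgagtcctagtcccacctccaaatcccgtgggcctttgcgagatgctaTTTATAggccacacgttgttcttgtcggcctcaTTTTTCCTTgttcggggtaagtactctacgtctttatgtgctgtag
Snhg12 chr4:132308428-132308727 (+): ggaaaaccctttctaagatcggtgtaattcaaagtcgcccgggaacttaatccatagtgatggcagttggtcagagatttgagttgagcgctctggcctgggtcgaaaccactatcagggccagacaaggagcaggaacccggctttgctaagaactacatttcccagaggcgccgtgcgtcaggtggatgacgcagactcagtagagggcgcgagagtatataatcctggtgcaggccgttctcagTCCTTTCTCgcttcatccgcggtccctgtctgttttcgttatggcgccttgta
Snhg17 chr2:158361473-158361772 (-): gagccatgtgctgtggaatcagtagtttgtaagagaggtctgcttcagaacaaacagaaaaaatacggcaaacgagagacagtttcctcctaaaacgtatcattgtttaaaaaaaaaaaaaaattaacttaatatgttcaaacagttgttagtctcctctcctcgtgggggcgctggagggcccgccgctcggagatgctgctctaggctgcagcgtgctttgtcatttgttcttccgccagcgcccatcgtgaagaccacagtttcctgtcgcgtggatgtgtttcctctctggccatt
1110038B12Rik chr17:34952422-34952721 (-): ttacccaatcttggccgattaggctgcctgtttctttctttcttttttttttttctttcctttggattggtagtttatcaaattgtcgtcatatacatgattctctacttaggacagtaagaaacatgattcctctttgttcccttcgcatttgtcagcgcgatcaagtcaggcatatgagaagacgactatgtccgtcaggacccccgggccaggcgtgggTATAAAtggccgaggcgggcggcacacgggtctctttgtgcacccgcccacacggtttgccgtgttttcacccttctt
Snhg5 chr9:88522848-88523147 (-): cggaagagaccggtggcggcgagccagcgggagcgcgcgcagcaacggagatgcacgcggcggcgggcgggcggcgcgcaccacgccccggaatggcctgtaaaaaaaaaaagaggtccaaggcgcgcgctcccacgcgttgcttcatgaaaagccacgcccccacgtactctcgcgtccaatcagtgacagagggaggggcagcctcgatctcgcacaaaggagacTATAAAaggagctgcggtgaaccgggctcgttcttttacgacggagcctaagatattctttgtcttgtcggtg
Snhg7 chr2:26640195-26640494 (-): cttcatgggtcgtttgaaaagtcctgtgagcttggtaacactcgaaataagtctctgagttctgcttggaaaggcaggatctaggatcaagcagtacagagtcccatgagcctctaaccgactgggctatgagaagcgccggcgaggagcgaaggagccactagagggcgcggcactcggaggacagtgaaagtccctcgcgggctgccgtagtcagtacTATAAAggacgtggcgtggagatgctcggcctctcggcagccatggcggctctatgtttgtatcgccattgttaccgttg
Letters were counted in the 14 windows of the 11 members that have a snoRNA gene in their span and a promoter entry. These 11 are not the 11 listed hosts: they include Dancr and 9330159M07Rik and lack Snhg6 and Snhg10. TATAAA on either strand was in 8 of the 14 windows, from 6 of the 11 genes. It was in 13.6% of all 32851 promoter windows and 12.3% of the 195 windows of the 287 genes. In Snhg3 and in 1 window of 9330159M07Rik it lay after the start. In the printed windows it began 29 bases before the start in Snhg1, 28 in 1110038B12Rik, 23 in Snhg5 and 30 in Snhg7, and the Snhg12 and Snhg17 windows lacked these letters. A pyrimidine run of 8 or more was present in 3 of the 14 windows (those of Snhg1, Snhg12 and 2410006H16Rik), against 9.38% of all windows. Neither set of letters followed the fall in CM, since each was found in hosts that fell and in hosts that did not. The motif CACGTG was in 7.15% of all windows and in 2 of these 14, both of 9330159M07Rik, CCGGAAGT in 3.89% and 1, and TGACGTCA in 1.79% and 0. TATAAA and the pyrimidine run do not overlap in the printed windows. These matches are a description of letters in a window.

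Most messages for proteins of the snoRNA particles were lower in CM as well. The list holds the core proteins of both particle types and their assembly factors. Of 15 genes tested, 11 were lower in CM than in NoRX and 0 higher, with a median of -0.54, and 12 were higher and 0 lower in DIFF than in CM. These are 73.3% lower and 80% higher, against 25.3% lower and 23.6% higher over all genes. The messages of Nop56 and Nop58, core proteins of the C/D particle, fell by 1.12 and 0.89 in CM (adjusted p = 2.15e-07 and 1.49e-06). That of Dkc1, the pseudouridine synthase of the H/ACA particle, fell by 1.05 (adjusted p = 4.66e-05). That of Naf1, an assembly factor, fell by 0.64 (adjusted p = 2.55e-05). In DIFF the same 4 genes differed from NoRX by -0.06, 0.27, 0.06 and -0.36, of which Nop58 was higher and Naf1 lower past the test. The messages with a terminal pyrimidine tract, for ribosomal proteins and translation factors, also fell in CM, 21 of 30 with 0 higher, by less: the median was -0.23, and Npm1 (-0.66), Eef1b2 (-0.45), Rps18 (-0.41) and Rpl10a (-0.40) had the largest differences past the test. In DIFF against NoRX 7 of the 30 were lower and 0 higher. The 21 lower in CM are 70% of the 30, against 25.3% of all genes, and the 7 lower in DIFF are 23.3% against 28.1%. The summed linear signal of the 30, relative to the 75th percentile, was 7227 to 8773 on the DIFF arrays, 7486 to 7767 on the CM arrays and 8806 to 9427 on the NoRX arrays. Factors of nonsense-mediated decay moved both ways, 3 higher and 4 lower of 15 in CM, among them Smg1 (difference 0.45), Upf3a (-0.59), Smg5 (-0.53) and Upf3b (-0.50), and 2 higher and 0 lower in DIFF against NoRX, Casc3 (0.52) and Smg1 (0.26). These are 46.7% and 13.3% of the 15, against 52.2% and 42.1% of all genes. Casc3 was at 3.93 on DIFF replicate 1 and 4.54 on DIFF replicate 2, against 3.71, 3.74 and 3.68 in NoRX.

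Malat1 and Neat1, neighbouring genes of chromosome 19 whose long RNAs stay in the nucleus, moved in opposite directions in CM. Malat1 RNA is concentrated in nuclear speckles, which store splicing factors, and Neat1 RNA is the scaffold of paraspeckles. Malat1 had 2.04 and 1.74 in DIFF, 2.99, 2.86 and 2.75 in CM and 2.29, 2.16 and 1.96 in NoRX. CM was above every NoRX array, by 1.66-fold (adjusted p = 0.000189), and DIFF overlapped NoRX (difference -0.25, adjusted p = 0.121). Neat1 had 5.83 and 5.46 in DIFF, 4.20, 4.08 and 3.92 in CM and 4.92, 4.88 and 4.63 in NoRX. Its 3 media did not overlap: CM was 1.67-fold below NoRX (adjusted p = 0.00023), DIFF was 1.79-fold above NoRX (adjusted p = 0.000275) and 2.99-fold above CM (adjusted p = 9.79e-07). These calls of Malat1 and Neat1 held under the alternatives run for each. Xist, Jpx and Firre, RNAs of the X chromosome, were above background on no array.

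Messages for paraspeckle proteins did not rise past the test with Neat1 in DIFF. Of 12 genes tested, 0 were higher and 6 lower in DIFF than in NoRX, with a median of -0.23 against -0.10 over all genes, and 50% called against 42.1%. Pspc1, Sfpq and Nono, the genes of one family of proteins that coat Neat1 RNA, differed by -0.98, -0.45 and -0.43 (adjusted p = 1.65e-05, 0.00127 and 0.000849). In CM against NoRX 4 were higher and 4 lower, with Pspc1 higher at 0.28 and Sfpq and Nono lower at -0.37 and -0.32. Together the calls in CM are 66.7% of the 12, against 52.2% of all genes. Tardbp, which binds Neat1 and many messages, fell by 0.58 in CM. Hnrnph3 was above background on all 3 CM arrays, at -3.46, -3.38 and -3.56, but on 1 each of the DIFF and NoRX arrays, so no size is given for its difference.

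Of 7 listed microRNA hosts on the array 3 were measured on every array, and all 3 differed between CM and NoRX. In that comparison 52.2% of all genes were called, and 55.1% of those detected on all arrays. A host transcript is cut in the nucleus to release the hairpin from which the microRNA is made, so its level on an array of labelled poly(A) RNA is not the level of the microRNA. The mature sequences that lie in the spans of these hosts in RefSeq (GRCm38.p6) are printed here with the seed, bases 2 to 8, in capitals, because the seed sets which messages a microRNA can pair with.
mmu-miR-22-3p chr11:75463772-75463793 (+): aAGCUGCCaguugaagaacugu
mmu-miR-22-5p chr11:75463734-75463755 (+): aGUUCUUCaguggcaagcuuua
mmu-miR-16-5p chr14:61631936-61631957 (-): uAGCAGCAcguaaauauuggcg
mmu-miR-16-1-3p chr14:61631894-61631915 (-): cCAGUAUUgacugugcugcuga
mmu-miR-92a-3p chr14:115044476-115044496 (+): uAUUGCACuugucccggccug
mmu-miR-92a-1-5p chr14:115044437-115044459 (+): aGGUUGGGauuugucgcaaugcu
The first pair lies in Mir22hg, the second in Dleu2 and the third in Mir17hg, the host of the miR-17 cluster, and no seed is shared between them. Mir22hg had -0.15 and -0.53 in DIFF, 1.27, 1.22 and 1.08 in CM and 0.47, 0.57 and 0.45 in NoRX. The media did not overlap, with CM highest and DIFF lowest, 1.62-fold above NoRX in CM (adjusted p = 0.000174) and 1.78-fold below NoRX in DIFF (adjusted p = 0.000125). Mir17hg, with -1.96 and -2.27 in DIFF, -2.78, -2.69 and -2.83 in CM and -1.96, -1.88 and -2.19 in NoRX, was lowest in CM, by 0.76 against NoRX (adjusted p = 0.000801), and its DIFF arrays overlapped NoRX. Dleu2 had -1.46 and -1.72 in DIFF, -2.01, -2.23 and -2.30 in CM and -1.92, -1.79 and -1.76 in NoRX. Its fall of 0.36 in CM (adjusted p = 0.0319) had a range of -0.44 to -0.19 over the alternatives. The call was lost without NoRX replicate 2 or 3 and without CM replicate 2 or 3. It was also lost with the slide row as a block, within row 1 and without the filter on dim probes.

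A further host was measured although it was on no list of microRNA hosts used here. D7Ertd143e, named here after its values were seen, spans 5 microRNA genes of the miR-290 to miR-295 cluster, known from mouse embryonic stem cells. Its mature 3′ arms in RefSeq show a shared seed and are printed for that reason.
mmu-miR-294-3p chr7:3220691-3220712 (+): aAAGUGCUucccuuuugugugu
mmu-miR-295-3p chr7:3220815-3220837 (+): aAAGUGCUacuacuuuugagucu
mmu-miR-291b-3p chr7:3219529-3219550 (+): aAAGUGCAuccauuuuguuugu
mmu-miR-293-3p chr7:3220390-3220411 (+): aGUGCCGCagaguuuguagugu
The first pair has the same seed, AAGUGCU, and the seeds of the other 2 are AAGUGCA and GUGCCGC. D7Ertd143e had -2.49 and -2.97 in DIFF, -2.49, -2.52 and -2.48 in CM and -2.79, -2.96 and -2.54 in NoRX. The media overlapped in part, and no comparison passed (CM and NoRX differed by 0.27, DIFF and NoRX by 0.03 and DIFF and CM by -0.23). Mir100hg lay just outside the detection rule, below background on 1 DIFF array, with mean levels of -4.94 in DIFF, -2.96 in CM and -4.18 in NoRX, and was higher in CM than in NoRX by 1.22 (adjusted p = 0.0029).

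Of 12 microRNA processing and Argonaute genes tested, 2 were higher and 4 lower in CM than in NoRX, 1 higher and 3 lower in DIFF than in NoRX, and 6 higher and 3 lower in DIFF than in CM. These are 50%, 33.3% and 75% of the 12, against 52.2%, 42.1% and 59.1% of all genes. Tarbp2 and Dgcr8, partners of the enzymes Dicer and Drosha, fell by 0.77 and 0.42 in CM, and Xpo5, which exports the hairpins, by 0.30. In DIFF, Ago1 and Ago2, which carry mature microRNAs, fell by 0.68 and 0.48 against NoRX (adjusted p = 0.000451 and 0.000738). Drosha passed as higher in DIFF than in CM (difference 2.50, adjusted p = 0.0404), but its DIFF values were 3.28 and 8.09, with DIFF replicate 1 near the CM values of 3.12, 3.16 and 3.27.

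Most of the 8 structural RNAs, grouped here after their values were seen, were lower in CM. Of the 8, 6 were lower in CM than in NoRX and 0 higher (75%, against 52.2% of all genes called and 25.3% lower), 4 were lower and 0 higher in DIFF than in NoRX, and 2 were higher and 0 lower in DIFF than in CM. In the comparisons with DIFF 50% and 25% were called, against 42.1% and 59.1% of all genes. The kit primes from poly(A) tails, which most of these RNAs lack, and its part in these values was not tested.

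Rmrp, the RNA of RNase MRP that cuts the ribosomal RNA precursor, changed most among the 8 in CM. It had 0.95 and 0.61 in DIFF, 0.14, -0.15 and -0.19 in CM and 0.97, 1.26 and 1.14 in NoRX. CM lay 2.29-fold below NoRX without overlap (adjusted p = 1.02e-05), and DIFF lay between them, -0.34 from NoRX (adjusted p = 0.0571) and 0.85 from CM (adjusted p = 0.000204). Snora74a, an H/ACA snoRNA, had -1.87 and -2.49 in DIFF, -2.71, -3.32 and -3.56 in CM and -2.23, -2.08 and -2.11 in NoRX, 2.08-fold lower in CM (adjusted p = 0.00222). Rnu3b1, a copy of the U3 RNA of the early ribosome assembly particle, had 1.08 and 0.77 in DIFF, 0.80, 1.05 and 0.70 in CM and 1.44, 1.84 and 1.64 in NoRX. It was below NoRX in both media, 1.65-fold in DIFF (adjusted p = 0.00174) and 1.73-fold in CM (adjusted p = 0.00033).

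The spliceosomal RNAs, Rn28s1 and Rn4.5s were less uniform. Rnu12, the U12 RNA of the minor spliceosome, had 4.38 and 4.44 in DIFF, 4.38, 4.24 and 4.25 in CM and 4.75, 4.85 and 4.73 in NoRX, and lay below NoRX in both media, by 0.36 in DIFF (adjusted p = 0.00269; not past the test under median centring, array weights or the row block) and 0.48 in CM (adjusted p = 0.000134). The U1 copy Rnu1b6 and the U2 copy Rnu2-10 passed in no comparison, with differences between CM and NoRX of -0.21 and 0.02. Rn28s1, the 28S ribosomal RNA, fell by 0.52 in DIFF and 0.42 in CM (adjusted p = 0.000564 and 0.000973). Rn4.5s, a small rodent RNA, was -0.31 from NoRX in DIFF and -0.26 in CM (adjusted p = 0.0288 and 0.0323), and each of these calls was lost under 10 alternatives, among them each fit without 1 NoRX array.

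Messages for the proteins of RNase P and RNase MRP were mostly lower in CM. Of 10 tested, 6 were lower and 2 higher in CM than in NoRX, with Pop1 at -0.70, Rpp14 at -0.63, Rpp38 at -0.61 and, in the other direction, Rpp30 at 0.51. In DIFF 2 were higher and 2 lower than in NoRX: Rpp38 (0.52), Pop5 (0.38), Pop1 (-0.30) and Rpp25l (-0.28). Against NoRX 80% of the 10 were called in CM, 60% lower, and 40% in DIFF. Over all genes 52.2% were called in CM, 25.3% lower, and 42.1% in DIFF. Of the 7 genes of the 7SK particle and its kinase, whose RNA was not among the 287, 1 was higher and 2 lower in CM, with Hexim1 and Larp7 at -1.03 and -0.72, and 0 higher and 3 lower in DIFF against NoRX. That is 42.9% of the 7 called in each medium, against 52.2% of all genes in CM and 42.1% in DIFF.

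**Figure D3:**
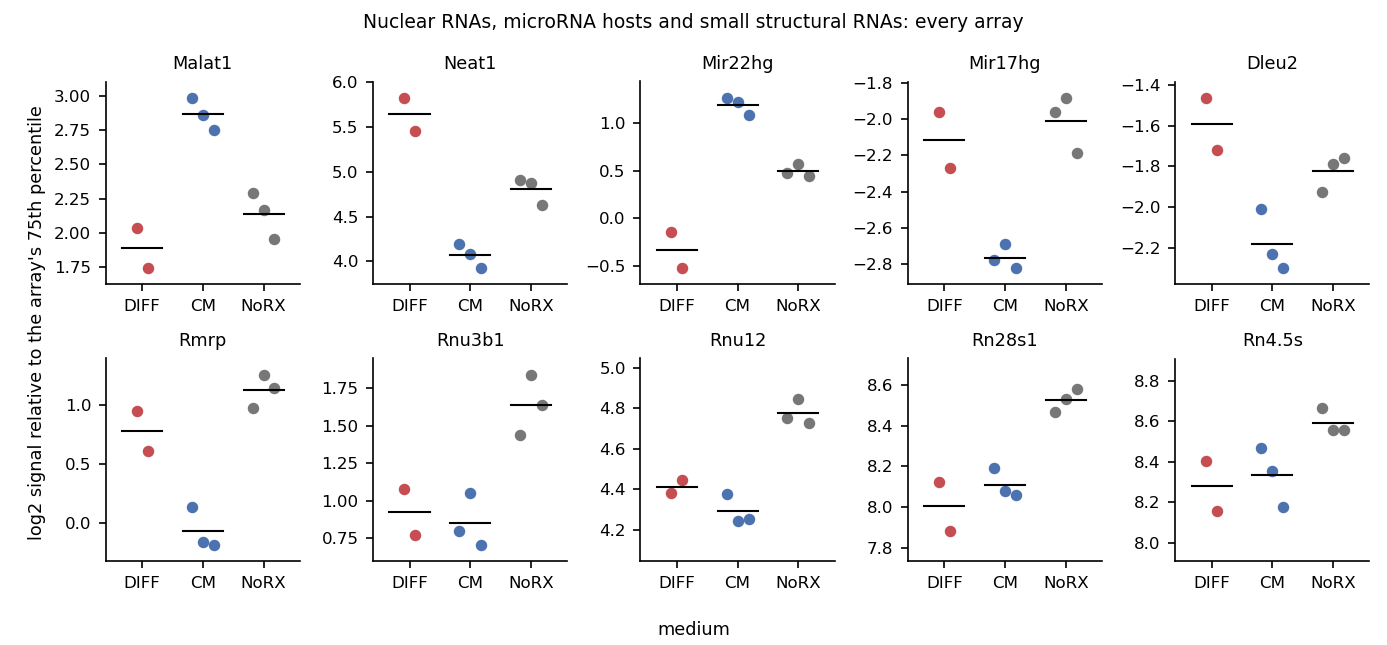
Log2 level relative to the 75th percentile of the array (y axis, own scale in each panel) of 10 nuclear, microRNA host and structural RNAs on every array (points) with group means (lines), for DIFF (2 arrays), CM (3) and NoRX (3). Malat1 and Mir22hg are highest in CM, Neat1 is lowest in CM and highest in DIFF, and Rmrp, Rnu3b1, Rnu12, Rn28s1 and Rn4.5s have all CM points below all NoRX points.

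Long non-coding RNAs known from growth, stress and differentiation were described from a list, of which 10 were among the 287. In CM 5 of the 10 were lower and 1 higher than in NoRX, in DIFF 3 were higher and 2 lower than in NoRX, and in DIFF 4 were higher and 3 lower than in CM. These are 60.0%, 50% and 70.0% of the 10, against 52.2%, 42.1% and 59.1% of all genes. Where the nearest protein-coding gene was tested, its values are given beside those of the RNA.

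Crnde, which lies beside the homeobox gene Irx5 and is known in human from colorectal tumours, was the one that rose in CM. It had -1.44 and -1.79 in DIFF, 0.54, 0.63 and 0.52 in CM and -1.03, -1.02 and -1.10 in NoRX. The media did not overlap: CM was 3.06-fold above NoRX (adjusted p = 3.13e-07), and DIFF was 1.48-fold below NoRX (adjusted p = 0.00188, not past the test with the row as a block) and 4.52-fold below CM (adjusted p = 2.63e-08). Irx5 averaged -2.47 ± 0.22 in DIFF (SD, n = 2), -0.43 ± 0.06 in CM and -1.75 ± 0.05 in NoRX (SD, n = 3 each). It was higher in CM than in NoRX by 1.32, lower in DIFF than in NoRX by 0.72 and lower in DIFF than in CM by 2.04, all past the test and in the directions of Crnde.

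Pvt1, which lies downstream of Myc, and Myc were both lower in CM. Pvt1 had 2.08 and 1.91 in DIFF, 0.95, 0.91 and 0.96 in CM and 1.27, 1.23 and 1.33 in NoRX, so the 3 media did not overlap. CM was 0.34 below NoRX (adjusted p = 0.00223) and DIFF 0.72 above it (adjusted p = 2.81e-05). A second, dimmer probe of Pvt1 was also higher in DIFF (0.56, adjusted p = 0.00253) but did not pass in CM (-0.21, adjusted p = 0.104). Myc differed by -0.88 in CM (adjusted p = 3.4e-06) and by 0.13 in DIFF (adjusted p = 0.26) against NoRX. Dancr, a host of Snora26 that is known in human for restraining differentiation of progenitor cells, had 1.34 and 1.26 in DIFF, 0.11, 0.05 and 0.01 in CM and 0.76, 0.75 and 0.46 in NoRX. It too was lowest in CM and highest in DIFF, 2.37-fold apart (adjusted p = 1.08e-06).

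Lockd, which lies downstream of the cell cycle inhibitor gene Cdkn1b, had the widest spread between media of the list. It had -0.25 and -0.45 in DIFF, -2.69, -3.11 and -2.82 in CM and -1.47, -1.38 and -1.31 in NoRX. CM was 2.81-fold below NoRX (adjusted p = 3.65e-06), DIFF 2.05-fold above NoRX (adjusted p = 0.00015) and 5.75-fold above CM (adjusted p = 6.32e-08). Cdkn1b went the other way in CM: it averaged 4.41 ± 0.18 in DIFF (SD, n = 2), 4.89 ± 0.02 in CM and 3.75 ± 0.06 in NoRX (SD, n = 3 each), higher in CM by 1.15 (adjusted p = 5.28e-07).

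Morrbid, known in mouse myeloid cells as a repressor of its neighbour Bcl2l11, a gene for a protein that promotes cell death, had -1.90 and -2.02 in DIFF, -1.14, -1.01 and -1.04 in CM and -0.62, -0.54 and -0.63 in NoRX. It was below NoRX in both media, 2.57-fold in DIFF (adjusted p = 7.99e-07) and 1.38-fold in CM (adjusted p = 0.00112). Bcl2l11 differed by -0.04 in DIFF (adjusted p = 0.774) and was higher in CM by 0.80 (adjusted p = 4.48e-05), so in CM the RNA and its neighbour moved in opposite directions past the test.

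Hnf4aos overlaps Hnf4a, the gene of a transcription factor that drives hepatocyte genes. Hnf4aos had -2.16 and -2.50 in DIFF, -2.53, -3.52 and -3.52 in CM and -2.24, -2.28 and -2.27 in NoRX. CM replicate 1, in row 1 of the slide, lay near the NoRX arrays and the other 2 CM arrays about 1 lower. The difference between CM and NoRX was -0.93 (adjusted p = 0.00748) and was not past the test within row 1 (-0.27) or with the row as a block, and that between DIFF and NoRX, -0.07, became 0.92 with the block (adjusted p = 0.0404). Hnf4a itself was lower than in NoRX in both media, by 0.54 in DIFF and 0.73 in CM (adjusted p = 0.000813 and 3.14e-05). The brightest probes of Tug1, of Norad, which binds Pumilio proteins, and of Hoxa11os passed in no comparison. The other 2 probes of Tug1 were lower in CM than in NoRX (differences of -0.38 and -0.45, adjusted p = 0.0065 and 0.0131), and the first of these was higher in DIFF than in CM (0.58, adjusted p = 0.000885). Nron passed only in DIFF against CM (-0.35, adjusted p = 0.0315), a call lost under 14 of 23 alternatives.

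**Figure D4:**
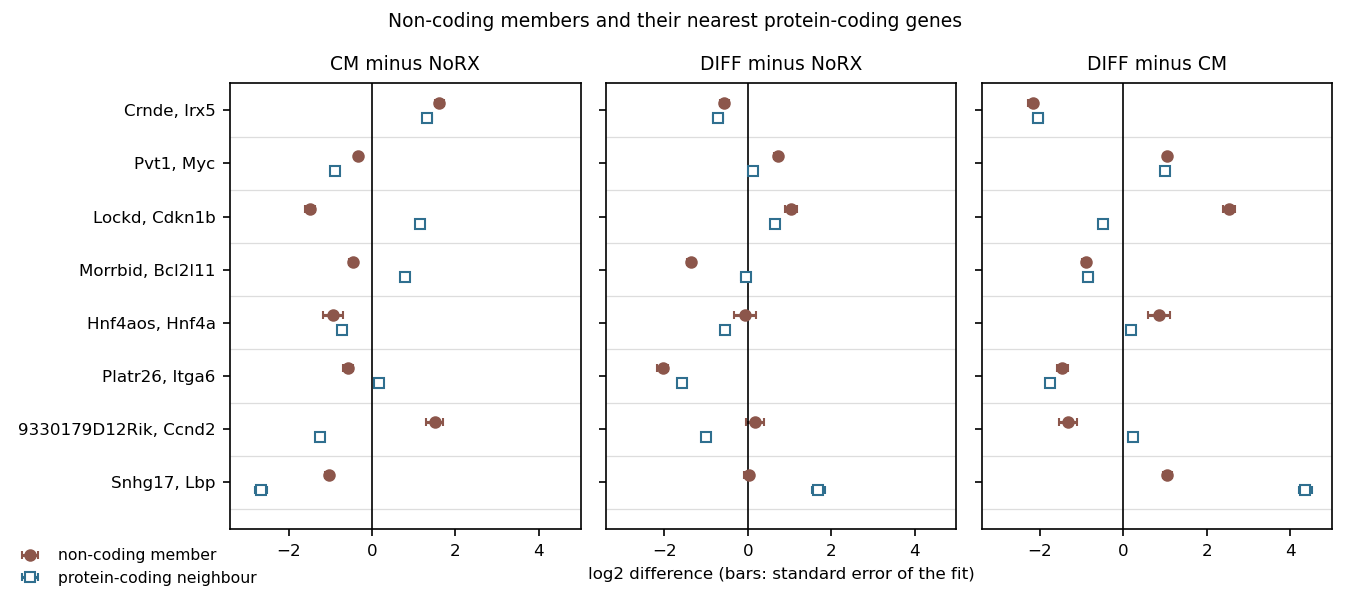
Log2 differences (x axis; bars are standard errors of the fit) of 8 non-coding members (filled circles) and of the protein-coding gene nearest to each (open squares), in CM minus NoRX, DIFF minus NoRX and DIFF minus CM. Crnde and Irx5 lie on the same side of 0 in all 3 panels, while Lockd and Cdkn1b lie on opposite sides for CM minus NoRX (-1.49 and 1.15).

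Other members with a large change also had a neighbour that could be compared. Snhg17 lies beside Lbp, the gene of a lipopolysaccharide-binding protein of the acute phase, which was lower in CM by 6.34-fold and higher in DIFF by 3.24-fold against NoRX (adjusted p = 7.84e-08 and 4.55e-06). Platr26 lies beside Itga6, the gene of an integrin subunit found on progenitor cells. Platr26 had -3.34 and -3.35 in DIFF, -1.75, -1.87 and -2.02 in CM and -1.34, -1.28 and -1.29 in NoRX, and Itga6 differed between DIFF and NoRX by -1.58 where Platr26 differed by -2.04 (adjusted p = 2.45e-08 and 2.13e-07). 9330179D12Rik overlaps the span of the cyclin gene Ccnd2 and rose in CM by 1.50 (adjusted p = 9.4e-05), where Ccnd2 fell by 1.24 (adjusted p = 1.19e-07). C730027H18Rik, with -0.32 and -0.78 in DIFF, -1.65, -1.85 and -1.67 in CM and 0.14, 0.18 and 0.07 in NoRX, and its neighbour Bicc1, the gene of an RNA-binding protein, were both lower in CM, by 1.85 and 1.09 (adjusted p = 4.27e-07 and 1.2e-06). Gm14207 overlaps Dll4, the gene of a Notch ligand. Gm14207 had -4.07 and -4.42 in DIFF, -2.27, -2.28 and -2.45 in CM and -1.86, -1.81 and -1.22 in NoRX, with DIFF 6.12-fold below NoRX (adjusted p = 1.62e-06). Dll4 itself was near the background, at -6.65 ± 0.27 in DIFF (SD, n = 2), -4.29 ± 1.21 in CM and -4.98 ± 0.23 in NoRX (SD, n = 3 each), so no difference is given for it.

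The largest differences that both DIFF arrays showed were losses in DIFF. 1500009C09Rik, an lncRNA with a clone name only, had 0.04 and -0.21 in DIFF, 5.38, 5.47 and 5.27 in CM and 5.10, 5.15 and 4.92 in NoRX. It was 35.3-fold lower in DIFF than in NoRX (adjusted p = 5.07e-11) and 44-fold lower than in CM (adjusted p = 1.5e-11), and a second probe gave -5.24 and -5.55 on the log2 scale. Its neighbour Cenpm, the gene of a kinetochore protein, was higher in DIFF than in NoRX by 0.75 (adjusted p = 0.000539). Cyp2d37-ps, a pseudogene of the cytochrome P450 2d cluster, had -3.76 and -3.76 in DIFF, 1.45, 1.53 and 1.41 in CM and 1.63, 1.78 and 1.38 in NoRX, 40.9-fold lower in DIFF than in NoRX (adjusted p = 6.21e-11). 4931408D14Rik followed, at -1.75 and -1.88 in DIFF, 1.00, 1.14 and 1.11 in CM and 0.44, 0.44 and 0.48 in NoRX, 7.47-fold lower in DIFF than in CM (adjusted p = 3.28e-10).

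The largest rise in DIFF that both DIFF arrays showed was that of Sprr2g, listed by RefSeq as a transcribed pseudogene of the small proline-rich family, whose proteins are known from the cornified envelope of epithelia. It had 0.61 and 0.34 in DIFF, -3.03, -3.08 and -2.65 in CM and -4.26, -4.52 and -4.32 in NoRX. The media did not overlap, and the level was 28.6-fold higher in DIFF (adjusted p = 3.99e-09) and 2.73-fold higher in CM (adjusted p = 2.51e-05) than in NoRX. BC037704, 4933412E12Rik and 1700001L05Rik were higher in DIFF than in NoRX by 1.57, 1.35 and 1.32.

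Another 3 large rises in DIFF rest on DIFF replicate 2 alone. Gm9776 had -3.96 and 7.71 on the DIFF arrays, against -4.06, -4.76 and -3.69 in CM and -4.26, -4.58 and -4.22 in NoRX. BB557941 had -0.89 and 8.37 on the DIFF arrays, against -1.03, -0.95 and -1.16 in CM and -0.91, -0.76 and -0.88 in NoRX. Nrg3os had -3.68 and 4.06 on the DIFF arrays, against -4.27, -3.89 and -3.96 in CM and -4.54, -4.30 and -3.86 in NoRX. In all 3 genes DIFF replicate 1 was within 1 of the other media and DIFF replicate 2 was over 7 higher, and the spots of Gm9776 and BB557941, but not of Nrg3os, had uneven local background on DIFF replicate 2. Without that array the differences from NoRX were 0.39 for Gm9776 and 0.55 for Nrg3os and the difference of BB557941 from CM was 0.15, none past the test. Of the 287 genes, 4 differed by over 1 on the log2 scale between the DIFF arrays, these 3 and 1700047M11Rik, whose spot also had uneven background.

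In CM the largest rise was that of E130112N10Rik, at -4.24 and -4.16 in DIFF, -2.01, -2.07 and -2.02 in CM and -4.01, -4.05 and -4.41 in NoRX, 4.35-fold above NoRX in CM (adjusted p = 2.74e-06). The DIFF and NoRX arrays overlapped near the background. Gm12298 showed the same order, at -1.28 and -1.30 in DIFF, 0.17, 0.12 and -0.00 in CM and -1.43, -1.28 and -1.36 in NoRX (CM against NoRX 1.45, adjusted p = 2.5e-07). The largest fall in CM was that of 1810062O18Rik, at -1.88 and -2.26 in DIFF, -4.60, -4.47 and -4.22 in CM and -2.46, -2.53 and -2.50 in NoRX, 3.82-fold below NoRX (adjusted p = 4.61e-06). 2810013P06Rik fell by 1.50 and Znf41-ps by 1.72 in CM (adjusted p = 8.46e-08 and 3.82e-05), and Tslrn1 fell in both media, by 2.24 in DIFF and 1.56 in CM against NoRX (adjusted p = 4.59e-05 and 0.000249).

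**Figure D5:**
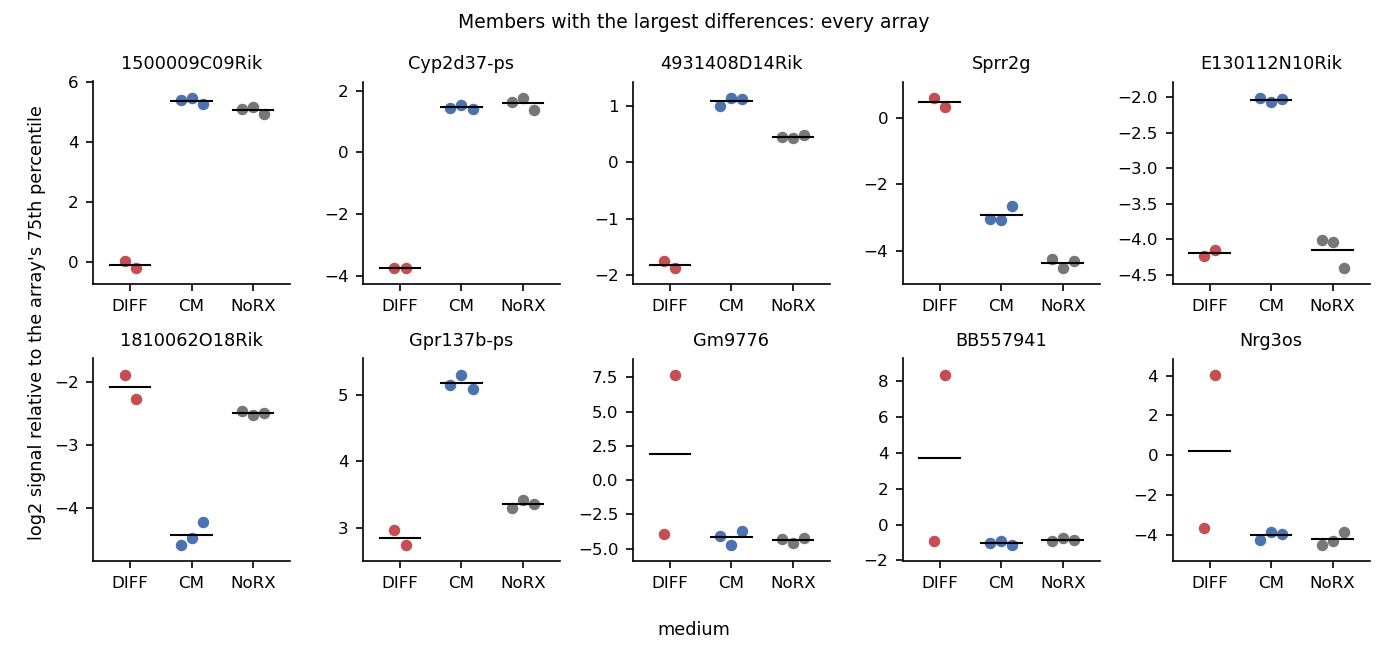
Log2 level relative to the 75th percentile of the array (y axis, own scale in each panel) of 10 members with large differences on every array (points) with group means (lines), for DIFF (2 arrays), CM (3) and NoRX (3). In the panels of Gm9776, BB557941 and Nrg3os 1 DIFF point lies at 7.71, 8.37 and 4.06 and the other beside the remaining arrays, whereas both DIFF points lie apart in those of 1500009C09Rik, Cyp2d37-ps and Sprr2g.

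The 78 transcribed pseudogenes passed no more often than other genes. In CM 11 were higher and 23 lower than in NoRX, 43.6% of the 78 against 52.2% of all genes. In DIFF 7 were higher and 25 lower than in NoRX, 41.0% against 42.1%, and 22 were higher and 21 lower than in CM, 55.1% against 59.1%. A probe for a pseudogene can also bind the message of its parent gene, so the 2 cannot be told apart by the probe where their sequences are near identical. Of the 10 brightest of the 287 genes, 9 were pseudogenes with only a predicted name (Gm5523, Gm8709, Gm12070, Gm6981, Gm5069, Gm15772, Gm8580, Gm6498 and Gm6548) and the other was Rn4.5s. Gm5523 had 9.25 and 8.74 in DIFF, 9.20, 9.26 and 9.17 in CM and 9.29, 9.37 and 9.50 in NoRX. By its brightest probe none of the 9 pseudogenes passed between CM and NoRX, where 52.2% of all genes were called. In DIFF 7 of the 9 were lower than in NoRX, by 0.26 to 0.42, against 28.1% of all genes. All 7 calls were lost under median centring. Of the 9, 7 had 13 further probes, of which 4 were higher and 1 lower in CM than in NoRX. They belong to Gm8709 (0.49 and 0.68), Gm6981 (0.46), Gm5069 (0.30) and Gm5523 (-0.73), so in these 4 genes the call depended on the probe. Of 36 members with several detected probes, 0 had probes past the test in opposite directions in this comparison. In DIFF against NoRX 8 of the 13 were lower and 0 higher. Of all 30357 probes tested singly, 6314 were higher and 6541 lower in CM than in NoRX, and 3055 and 6916 in DIFF.

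For 11 pseudogenes whose name gives the parent gene, the parent was tested too, 10 parents in all since 2 of the pseudogenes share Pisd. Between CM and NoRX both passed in the same direction in 4 of the 11 pairs and in opposite directions in 1, the pseudogene alone passed in 2, the parent alone in 2 and neither in 2. Between DIFF and NoRX these counts were 3, 0, 4, 2 and 2. Gpr137b-ps had 2.97 and 2.74 in DIFF, 5.15, 5.30 and 5.09 in CM and 3.31, 3.42 and 3.36 in NoRX. It was 3.52-fold higher in CM and 1.43-fold lower in DIFF than in NoRX (adjusted p = 3.48e-08 and 0.000995), and Gpr137b, the gene of a lysosomal membrane protein, differed by 1.43 in CM and -0.58 in DIFF. H2-K2, chosen like the other pairs below after its values were seen, rose 2.26-fold in CM, and H2-K1, a class I histocompatibility gene, rose 2.15-fold. Selenok-ps1 rose in DIFF by 0.80 and Selenok by 0.75. Tyms-ps differed from its parent: it had 0.12 and -0.07 in DIFF, -0.86, -1.02 and -0.89 in CM and 0.51, 0.48 and 0.43 in NoRX, 2.64-fold lower in CM (adjusted p = 2.6e-07), where the probe of Tyms, the gene of thymidylate synthase, differed by -0.08 (adjusted p = 0.619). Tubb2a-ps2 and its parent went opposite ways in CM, by -0.46 and 0.52 (adjusted p = 0.00189 and 0.000562), and Hmga2-ps1 differed by 0.16 in CM and -1.03 in DIFF where Hmga2 differed by 1.15 and 0.48. The difference of Hmga2 in DIFF was not past the test (adjusted p = 0.413), and its SD over the 2 DIFF arrays was 1.56.

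The members that varied least over the 8 arrays, in spite of the media, were Gm5643, 5530601H04Rik, Snhg6, 5830417I10Rik and 9330159M07Rik. The highest and the lowest array differed by 0.19 for Gm5643 and by 0.28 for 9330159M07Rik. None of the 5 passed in any comparison, but they were chosen by this small range, so that is no separate result.

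The X-linked Kantr and Dio3os, which belongs to the imprinted Dlk1-Dio3 region but was not among the RNAs left out, were also looked up after their values were seen. Kantr had -0.01 and -0.25 in DIFF, 1.15, 1.22 and 1.19 in CM and -0.05, -0.02 and 0.01 in NoRX, so CM stood 2.31-fold above NoRX (adjusted p = 4.99e-07) while DIFF was not past the test against NoRX (-0.11). Dio3os had -4.15 and -4.17 in DIFF, -2.31, -2.36 and -2.37 in CM and -2.77, -2.88 and -2.97 in NoRX. The media did not overlap, with DIFF 2.44-fold below NoRX (adjusted p = 6.15e-05) and CM 1.44-fold above it (adjusted p = 0.00949).

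The detection rule left out genes measured in one medium and not in another. Of 713 non-coding genes outside the rule, 472 were above background on 0 arrays, 108 on 1 and 35 on 7. The lowest level of a member on any array was between -4.87 and 8.74 (median -1.34), and for the 35 genes on 7 arrays it was between -5.76 and -4.36 (median -4.82). Between CM and NoRX 10 genes outside the rule were measured in CM with no array of NoRX above background, and 9 the other way round; for DIFF and NoRX these counts were 9 and 9, and for DIFF and CM 9 and 17. For such genes only a bound can be given: the mean of the bright medium against, for each array of the dim medium, the higher of the probe's own signal and the lowest signal that was above background there. These genes were chosen by that contrast, so no p is printed for their differences.

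In DIFF, 4930524C18Rik was at least 27.5-fold, 4933400F21Rik at least 16.8-fold, Gm7134 at least 7.48-fold and Evx1os at least 5.82-fold higher than in NoRX, where they were not well above background. The bounds of 4930524C18Rik, 4933400F21Rik and Evx1os rest on DIFF replicate 2: without it the bound of Evx1os was 2.07-fold and that of 4933400F21Rik 1.11-fold, and none could be given for 4930524C18Rik. 4930524C18Rik had -5.08 and 4.64 on the DIFF arrays and -7.22, -7.32 and -6.99 on the NoRX arrays, and 4933400F21Rik had -4.85 and 2.99 on the DIFF arrays and -7.21, -5.46 and -5.01 on the NoRX arrays. Evx1os had -3.95 and -0.97 on the DIFF arrays and -7.17, -7.26 and -7.09 on the NoRX arrays. Gm7134 had a value on DIFF replicate 1 alone, -2.10, since its spot on DIFF replicate 2 was an outlier, so its bound is that of 1 DIFF array. Has2os, the antisense RNA of the hyaluronan synthase gene Has2, was dark in DIFF, at -5.15 and -5.57 there, -1.26, -1.02 and -1.17 in CM and -1.81, -1.64 and -1.93 in NoRX. Its level in DIFF was at least 12.8-fold lower than in CM and at least 8.17-fold lower than in NoRX. Plut, 2700089I24Rik and Rdh18-ps were lower in DIFF than in NoRX by at least 3.18-fold, 2.72-fold and 2.41-fold.

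In CM, Btnl5-ps was at least 11.7-fold higher than in NoRX, at -1.46, -1.32 and -1.58 on the CM arrays and -6.27, -5.26 and -6.15 on the NoRX arrays. Gm10768, Gm6329 and Mcpt-ps1 were higher by at least 3.72-fold, 3.57-fold and 3.01-fold. Going the other way, 1810014B01Rik, 1810034E14Rik, 1700018G05Rik and E330013P04Rik were lower in CM than in NoRX by at least 3.79-fold, 3.35-fold, 2.31-fold and 2.28-fold. Against CM, A930004D18Rik was at least 18.2-fold higher in DIFF, at -4.89 and 3.17 on the DIFF arrays and -5.82, -5.02 and -5.40 on the CM arrays, a bound that again rests on DIFF replicate 2. Gm8884 was at least 3.53-fold higher in DIFF than in CM with both DIFF arrays alike, at -2.88 and -3.58 in DIFF and -5.06, -6.12 and -6.67 in CM. B930018H19Rik was at least 4.15-fold lower in DIFF, at -5.80 and -5.70 in DIFF and -3.09, -2.59 and -2.85 in CM.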

How the data were processed

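Total RNA of BMEL cells in 3 media was labelled with Cy3 and hybridised to Agilent SurePrint G3 mouse arrays, 1 array per sample. The deposited scanner files hold, per the file headers, the background-subtracted and detrended signal intensity of each spot. The submitters' processing notes name Agilent Feature Extraction 11.0.1.1. The authors' deposited value table holds the same intensities, with a largest difference of 0. Gene symbols came from the RefSeq gene table (GRCm38.p6) by accession; 39 probes with non-coding accessions (31 accessions) that were detected on all arrays matched no symbol and are not analysed here. The array was designed on another build, so only coordinates of RefSeq sequences are printed.

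The log2 of the processed signal minus each array's 75th percentile was taken over non-control spots, spots flagged as outliers were left out and repeated spots averaged. Each gene was represented by its brightest probe, and genes with at least 2 arrays well above background were tested, 14033 in all. The test was limma 3.58.1 (R 4.3.3; lmFit, eBayes with trend) on all 8 arrays with Benjamini-Hochberg adjustment over all genes, two-sided, at 0.05. The script was tested on simulated data, where unchanged genes were called many times more often against DIFF than between CM and NoRX. Figures used Python 3.11.15 with pandas 2.3.3 and matplotlib 3.10.9. The number of arrays limits the precision. Genes were named by a rule: the 10 brightest, the 6 highest and 6 lowest differences per comparison among genes past the test whose groups did not overlap, the detected genes of 5 non-coding lists, the 5 with the smallest range, the 4 largest bounds per comparison and direction outside the detection rule, up to 4 genes past the test of each protein list, and protein-coding neighbours of genes named for a change. Other genes are said to be chosen after their values were seen. The members and the 17 lists were chosen with earlier results of these data known. Alternatives changed the scaling, background correction, filter, probe choice, slide row, array weights, replicate block and the arrays used. Normexp correction used the median spot signal, not the mean signal planned, since the files used here give the median.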

Additional observations from a re-analysis of the deposited data

How the results depend on the processing

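The 6 counts of genes higher or lower stayed within 1.5 times the reported count except as follows. Median centring gave 43 lower in DIFF than in NoRX and 53 lower in DIFF than in CM. The slide row as a block gave 57 lower in CM than in NoRX, and 25 higher and 31 lower in DIFF than in NoRX. Array weights gave 17 higher and 30 lower in DIFF than in NoRX, and 50 higher and 47 lower in DIFF than in CM. Leaving out 1 array at a time gave 48 to 71 higher and 74 to 108 lower in CM than in NoRX, 31 to 73 higher (73 without DIFF replicate 2) and 57 to 122 lower (122 without DIFF replicate 1) in DIFF than in NoRX, and 74 to 99 higher and 67 to 121 lower in DIFF than in CM. Where an array is left out of DIFF, the lone array is assumed to vary like the other groups. The causes were not tested.

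Among single genes, Snhg10 changed direction within row 1 (0.32 for CM against NoRX) and Hnf4aos with the row as a block (0.92 for DIFF against NoRX). Of 158 results of named genes, the row block ended 20 calls and array weights 23.

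Replicate numbers are shared between the media. In their deviations from the group means, same-numbered arrays correlated at -0.0600 to 0.181 over 13995 genes, highest for CM replicate 2 with DIFF replicate 2. Arrays of unlike number were not compared, so whether a number marks a shared culture or day is not known. With the replicate block, 56 genes were higher and 86 lower in CM than in NoRX, 37 and 64 in DIFF than in NoRX, and 80 and 74 in DIFF than in CM. The lowest signals near background limit the precision of dim genes.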
